A study of Mus musculus with 21 samples.

Results

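The genes described are 7 mouse receptors of myeloid cells, Lilrb4a, Lilr4b, Pira2, Pirb, Cd300a, Sirpa and Slamf7, followed over all 21 libraries of a single-cell RNA data set. They are 7 of the 24455 gene symbols in the count table, and all 7 were found by name. They were chosen by measured values of these same libraries: Lilrb4a and Lilr4b by their rise over untransduced fibroblasts, and Pira2 and Slamf7 by a rise and a fall when Ikzf2 was added to Spib and Irf8. Values of the members in those contrasts are therefore given as a description, without a test. The other members were listed beside these as related receptors.

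Paired receptors are encoded by neighbouring or related genes whose extracellular parts resemble each other while their cytoplasmic parts carry opposite signals. The inhibitory members carry tyrosine motifs (ITIMs) that recruit the phosphatases SHP-1 (Ptpn6), SHP-2 (Ptpn11) and SHIP-1 (Inpp5d). The activating members have short tails and signal through adaptors such as FcRgamma (Fcer1g) and DAP12 (Tyrobp), which lead to the kinase Syk. On macrophages, dendritic cells (DCs) and granulocytes the balance of the pair sets a threshold for activation. Among the members, Lilrb4a (gp49B), Pirb (which binds MHC class I), Cd300a (which binds phospholipids of dying cells) and Sirpa (which binds Cd47) are inhibitory. Pira2 is the activating relative of Pirb, Lilr4b (gp49A) is a close copy of Lilrb4a without ITIMs, and Slamf7 is a self-binding receptor of the SLAM family that couples to small SH2 adaptors.

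The study transduced mouse embryonic fibroblasts (MEFs) with lentiviral sets of transcription factors and profiled single cells with the droplet-based 10x 3' assay, which counts transcripts by unique molecular identifiers (UMIs). The factor sets were PI8, made of Pu.1 (the product of Spi1) and Irf8, and PIB, which adds Batf3 to it; PI4, made of Pu.1 and Irf4, and PIP, which adds Prdm1; and SI8, made of Spib and Irf8, and SII, which adds Ikzf2. Each was collected at day 3 and at day 9 after transduction. Each set was put into fibroblasts of genotype Clec9aCre/Cre Rosa26stopflox-tdTomato/tdTomato, from which live tdTomato+ cells were sorted. SI8 and SII were also put into fibroblasts of genotype hCD2Cre/WT Rosa26stopflow-YFP/WT, from which live YFP+ cells were sorted. The reporter gates keep cells in which a Clec9a-driven or an hCD2-driven Cre has acted, so they select among transduced cells. Controls were 2 wildtype MEF libraries sorted only as live cells, without transduction, and 1 wildtype spleen library each of cDC1 and cDC2, the conventional DC types, and of pDC, the plasmacytoid type. A factor set in a reporter line is called an arm, and there are 8 arms and 16 transduced libraries. With the exception of MEF each group holds 1 library, so a level in it has no replicate check.

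The library labelled PI8 day 9 stood apart from the other transduced libraries. Its summed fibroblast markers (9 genes) came to 6.14 CPM (UMI counts scaled to a common library total), against 452.3 to 3207 CPM in the other 15, and its granulocyte progenitor markers (5 genes) to 1507 CPM, against 22.6 CPM or less. Xist stood at 1119 CPM and Ddx3y at 0 in it, against 136 and 17.4 CPM in PI8 day 3. Ddx3y was also at 0 CPM in all libraries of the hCD2 line, against 18.6 to 47.8 CPM in SI8 and SII of the Clec9a line. Results that rest on PI8 day 9 are given with and without it. The SI8 libraries of the hCD2 line were shallow, with medians of 2765 and 2786 UMIs per cell against 2765 to 82866 over all libraries, and 8.32% and 10.8% of their UMIs came from Gm42418, AY036118 and Lars2, against 0.0764% to 3.66% elsewhere. In the splenic libraries, 7 of 7 cDC1 markers (3957 CPM in all), 7 of 7 cDC2 markers (633.6 CPM) and 7 of 7 pDC markers (17473 CPM) were detected in the library of that name. These sums did not separate all types. The pDC library also held 3715 CPM of the cDC1 markers and 837.9 CPM of the cDC2 markers, the latter more than the cDC2 library. The pDC markers came to 203.3 CPM in cDC1 and 216.3 CPM in cDC2. No pair of libraries shared more than 4 cell barcodes. Intervals below are exact 95% intervals that cover counting error only, and for a gene with 0 UMIs the limit is the level that 3 counts would give.

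Near-identical copies bear on 4 of the members. Lilr4b (chr10:51480632-51486703, plus strand) and Lilrb4a (chr10:51490956-51496611, plus strand) lie 4252 bp apart in GRCm38, and their longest coding transcripts were identical at 96.3% of 1383 aligned bases. Of the 50-base words in the last 500 bases of Lilrb4a, where a 3' assay reads, 42.6% also occurred in a transcript of Lilr4b and 100% in the annotated gene Gm49339. None of the corresponding words of Lilr4b occurred in another gene. Pirb (chr7:3711409-3720391, minus strand) and Pira2 (chr7:3836812-3845051, minus strand) lie 116420 bp apart and were identical at 90.5% of 2268 aligned bases. Their last 500 bases shared 0% of such words with each other, but 100% of those of Pira2 occurred in Gm15922. The levels of Lilrb4a and Pira2 are thus uncertain, since reads common to several genes can be split or dropped in counting. For Cd300a (chr11:114890041-114904654, plus strand), Sirpa (chr2:129592835-129632228, plus strand) and Slamf7 (chr1:171632403-171653035, minus strand) 0% of the words were shared.

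The sequences upstream of Pirb, Pira2 and Slamf7 are shown because Pirb and Pira2 moved together, and Slamf7 the other way, in the cells with Ikzf2. They are the 250 bases before the annotated start in RefSeq (GRCm38.p6), at chr7:3720383-3720632 for Pirb, chr7:3845052-3845301 for Pira2 and chr1:171649000-171649249 for Slamf7, all on the minus strand. The Pirb and Pira2 stretches lie at the ends of the gene spans given above, whereas that of Slamf7 lies inside its span, since the RefSeq start used is downstream of the outermost start in GENCODE. Of the members, 5 were matched in that table; Lilrb4a and Sirpa were not. Capitals mark matches to GAGGAA on either strand, a core bound by Pu.1-type ETS factors.
Pirb: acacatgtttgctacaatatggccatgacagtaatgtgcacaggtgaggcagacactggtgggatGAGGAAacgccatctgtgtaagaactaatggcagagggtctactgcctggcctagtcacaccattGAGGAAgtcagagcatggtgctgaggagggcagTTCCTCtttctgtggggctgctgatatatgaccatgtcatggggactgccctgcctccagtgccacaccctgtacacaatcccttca
Pira2: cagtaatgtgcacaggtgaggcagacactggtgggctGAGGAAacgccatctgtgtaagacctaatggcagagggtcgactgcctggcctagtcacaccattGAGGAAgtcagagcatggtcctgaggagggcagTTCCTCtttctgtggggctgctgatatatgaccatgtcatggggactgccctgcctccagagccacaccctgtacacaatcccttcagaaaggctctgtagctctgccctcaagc
Slamf7: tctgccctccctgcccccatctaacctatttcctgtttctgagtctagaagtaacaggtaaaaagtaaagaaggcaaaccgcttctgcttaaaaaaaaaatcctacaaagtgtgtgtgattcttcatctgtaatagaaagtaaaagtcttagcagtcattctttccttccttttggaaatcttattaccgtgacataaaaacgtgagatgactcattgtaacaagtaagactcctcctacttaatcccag
The Pirb and Pira2 stretches were identical at 217 of 222 aligned bases (97.7%). GAGGAA began at -185, -120 and -87 in Pirb and at -213, -148 and -115 in Pira2, and at 0 places in Slamf7 and in Lilr4b. It began at -39 in Cd300a. Over all 32851 upstream stretches of this length, 23.3% held at least 1 match. The other motifs searched on both strands were TGGGAA (a core bound by Ikaros family factors, in 21.6% of stretches), GGAANNGAA (an ETS-IRF composite core, 7.0%) and GAAANNGAA (an interferon-response core, 7.1%). Matches of different motifs can overlap. Among the 5 matched members these had 1 match, TGGGAA at -15 in Cd300a. A match describes letters and not a bound site.

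**Figure D1:**
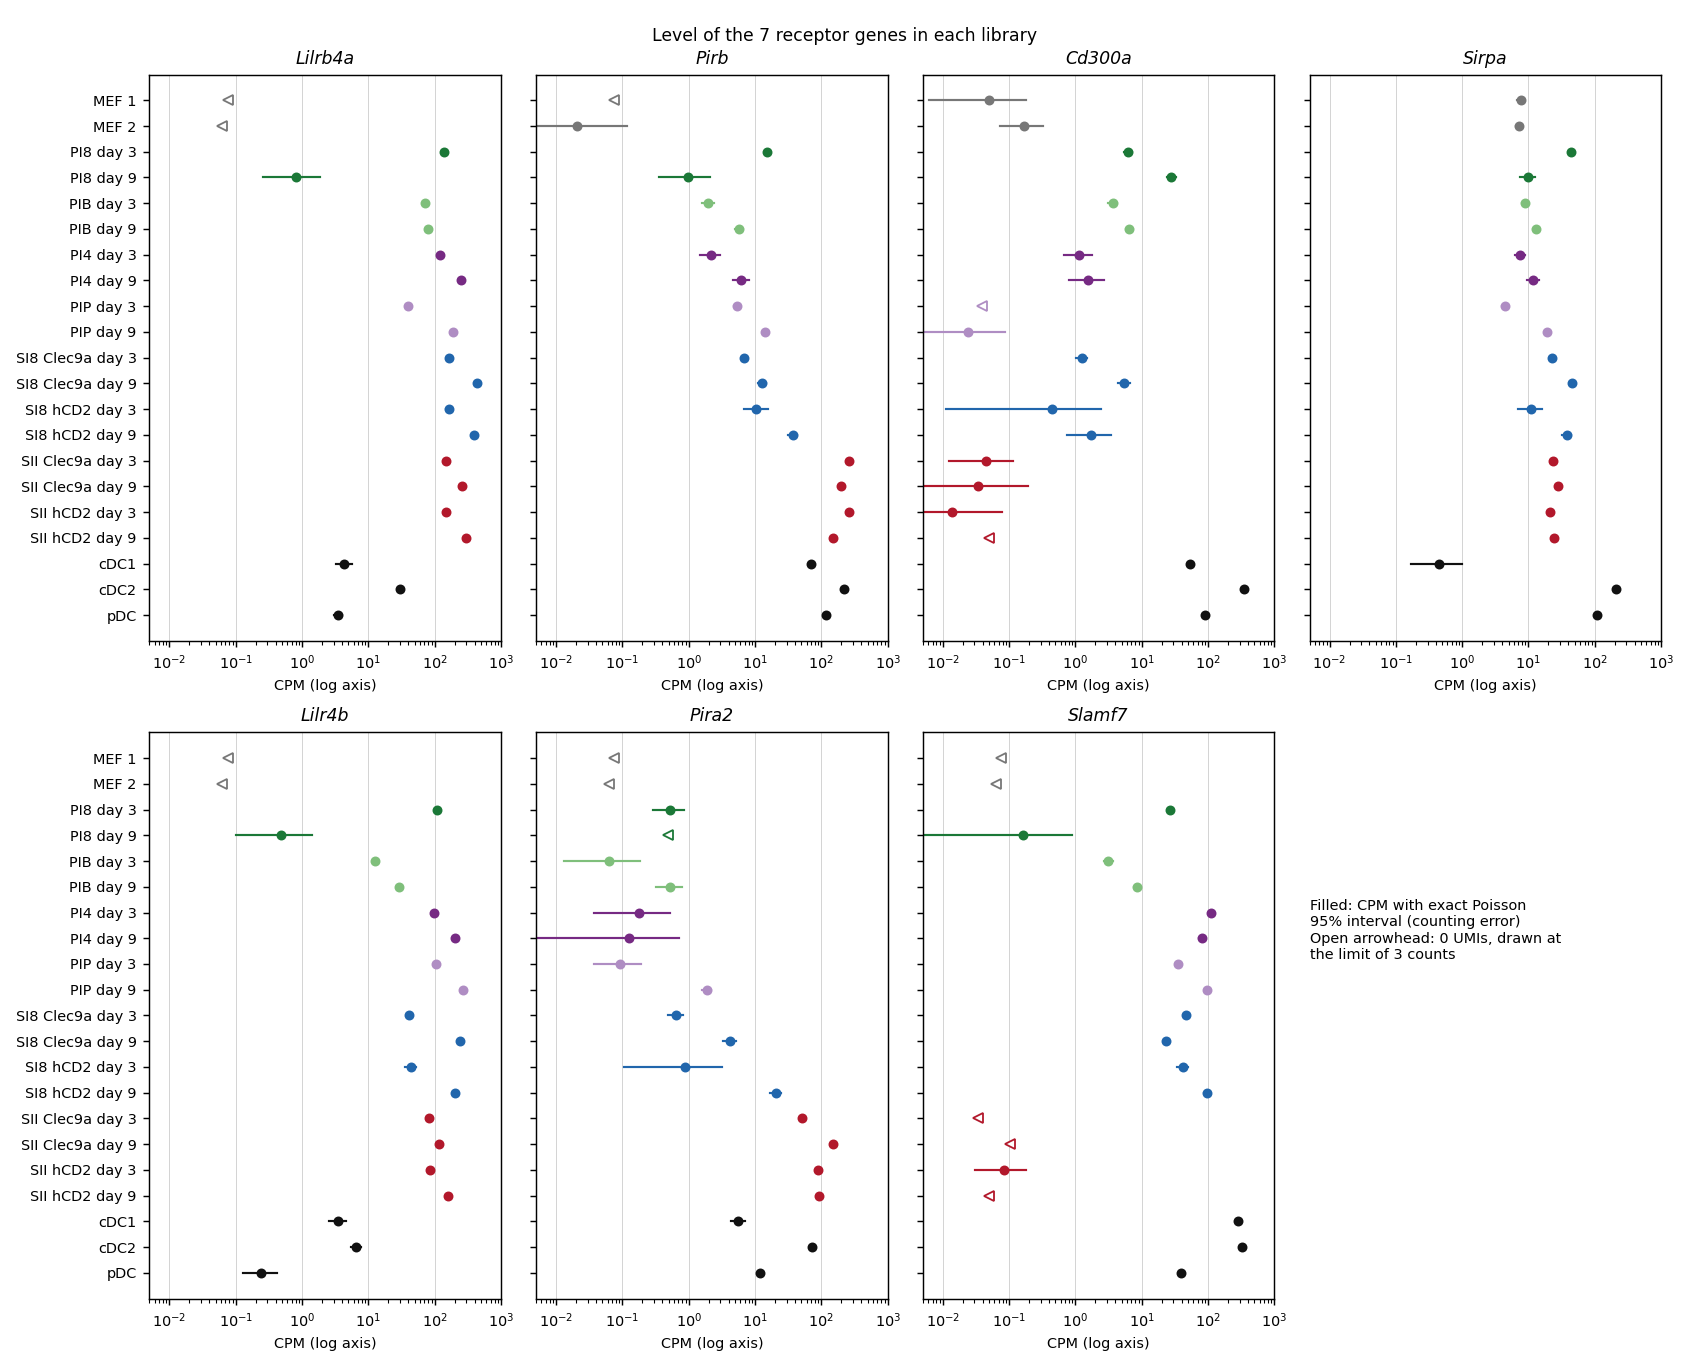
CPM of each member (log axis) in the 21 libraries, with exact Poisson 95% intervals of counting error; open arrowheads mark 0 UMIs and sit at the limit of 3 counts. Lilrb4a and Lilr4b are at the limit in both MEF libraries, Pirb and Pira2 are highest among transduced cells in the 4 SII libraries, and Slamf7 and Cd300a lie near or at the limit there.

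Among the inhibitory receptors, Lilrb4a was higher in 15 of 16 transduced libraries than in any splenic DC library. Both MEF libraries held 0 UMIs, with limits of 0.0757 and 0.0625 CPM. The 16 transduced libraries ran from 0.807 CPM in PI8 day 9 through a median of 157.8 to 439.9 CPM in SI8 Clec9a day 9, and without PI8 day 9 the lowest was 40.3 CPM in PIP day 3. The splenic DCs held 30.2 CPM in cDC2, 4.32 CPM in cDC1 and 3.48 CPM in pDC. The highest 3 libraries were SI8 Clec9a day 9, SI8 hCD2 day 9 (386.5 CPM) and SII hCD2 day 9 (299.5 CPM), with intervals that did not overlap. The SI8 and SII libraries of day 3 held 150.2 to 167.1 CPM, and neighbours among these 4 overlapped in their intervals. A Lilrb4a UMI was seen in 96.5% of SI8 Clec9a day 9 cells and in 16.9% of cDC2 cells, at medians of 10816 and 11957 UMIs per cell, and in 0% of MEF cells. After thinning each cell to 2500 UMIs these shares were 63.9% and 5.33%.

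Pirb formed steps between the factor sets. The 4 SII libraries held 263.1 and 262.7 CPM at day 3 and 198.4 and 148.0 CPM at day 9; here and below values of the Clec9a cells precede those of the hCD2 cells. The other transduced libraries ran from 0.969 CPM in PI8 day 9 to 36.8 CPM in SI8 hCD2 day 9, so SII did not overlap with them. Splenic cDC2 held 217.6 CPM, pDC 118.0 CPM and cDC1 69.4 CPM. Thus SII at day 3 lay above cDC2 and SII at day 9 between cDC2 and pDC, with intervals that did not overlap. The MEF libraries held 0 and 1 UMI. In SII at day 3, 98.3% and 96.6% of cells had a Pirb UMI, against 20.5% in SI8 Clec9a and 0% and 0.0579% in MEF. The median depths were 39646, 53062, 63868, 18100 and 25928 UMIs. Thinned to 2500 UMIs, the shares were 46.3%, 43.9%, 1.77%, 0% and 0.00437%.

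Cd300a was a gene of the splenic DCs in these data. It held 349.6 CPM in cDC2, 88.4 CPM in pDC and 53.6 CPM in cDC1. The highest transduced library was PI8 day 9 at 28.1 CPM, and the other 15 ran from 0 to 6.48 CPM in PIB day 9. PI8 day 3 (6.30 CPM) and SI8 Clec9a day 9 (5.47 CPM) overlapped with PIB day 9 or each other in their intervals, and PIB day 3 (3.65 CPM) lay below them. SI8 Clec9a day 3 held 1.24 CPM. SII held 4, 1 (Clec9a line), 1 and 0 UMIs (hCD2 line), and PIP 0 and 2. These levels overlapped in their intervals with the 2 UMIs of the first MEF library (0.0505 CPM); the second held 8 UMIs (0.167 CPM).

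Sirpa was the member already present in untransduced fibroblasts, at 7.60 and 7.13 CPM. Transduced libraries held 4.38 CPM (PIP day 3) to 45.3 CPM (SI8 Clec9a day 9), and several of them, among them PIB day 3 and PI4 day 3, overlapped with MEF in their intervals. The splenic types spanned the widest range, with 210.6 CPM in cDC2, 107.2 CPM in pDC and 6 UMIs (0.454 CPM) in cDC1. The ratio of cDC2 to cDC1 was 463.6 (counting interval 212.8 to 1264). Its ligand gene Cd47 was broadly expressed, at 533.4 and 537.5 CPM in MEF and 204.4 to 527.4 CPM in transduced libraries.

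Lilr4b, the copy of Lilrb4a without ITIMs, had 0 UMIs in both MEF libraries. It held 0.484 CPM in PI8 day 9 and 12.6 to 263.8 CPM in the other transduced libraries, the lowest in PIB day 3 and the highest in PIP day 9. Splenic levels were lower, at 6.55 CPM in cDC2, 3.48 CPM in cDC1 and 0.245 CPM in pDC. The top of its order differed from that of Lilrb4a: PIP day 9 was followed by SI8 Clec9a day 9 (240.8 CPM), SI8 hCD2 day 9 (205.5 CPM) and PI4 day 9 (199.7 CPM), and the last pair overlapped in their intervals.

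The share of Lilrb4a in the UMIs of both copies varied with the factor set. It was 27.7% (26.8 to 28.5) in PIP day 3 and 41.9% (41.4 to 42.4) in PIP day 9, against 54.7% (53.1 to 56.3) and 55.2% (53.5 to 56.8) in PI4. In PIB it was 84.9% (83.7 to 86.0) and 73.4% (72.0 to 74.7), against 56.5% (55.4 to 57.6) in PI8 day 3. In SI8 it was 80.2% and 79.1% at day 3 and 64.6% and 65.3% at day 9, with no overlap of intervals in either line. In cells with at least 10000 UMIs this still held in the Clec9a line (80.2% and 65.0%), but in the hCD2 line the shares were 62.9% (44.9 to 78.5, from 35 UMIs) and 60.8% (56.7 to 64.7). The 4 SII libraries stayed between 63.9% and 69.0%. The splenic shares were 55.3% (45.2 to 65.1) in cDC1, 82.2% (79.5 to 84.7) in cDC2 and 93.4% (89.0 to 96.5) in pDC. Since the 3' ends are partly shared, the share compares libraries and does not give the ratio of the proteins.

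**Figure D2:**
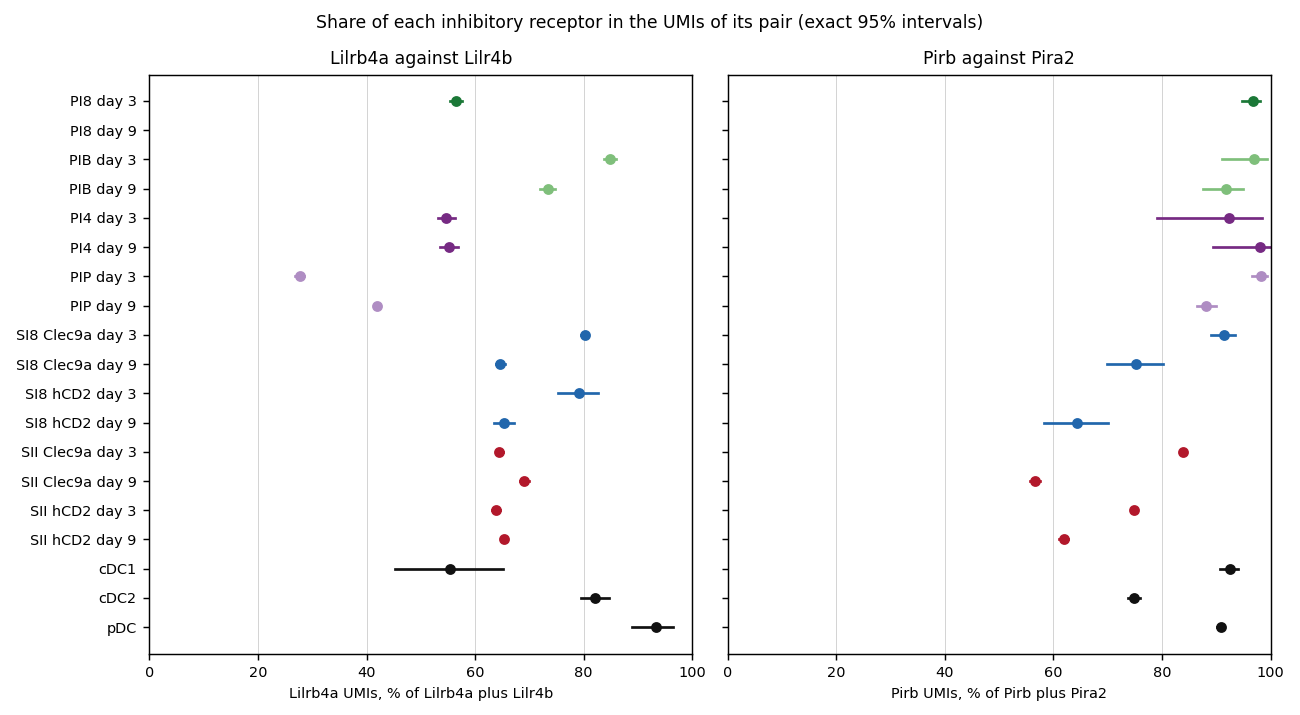
Share of Lilrb4a in Lilrb4a plus Lilr4b UMIs (left) and of Pirb in Pirb plus Pira2 UMIs (right), in percent with exact 95% intervals, for libraries with at least 30 UMIs of the pair. PIP lies lowest on the left, at 27.7% and 41.9%, and on the right the day 9 libraries of SI8 and SII lie lower than their day 3 libraries.

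Pira2, the activating receptor, had 0 UMIs in MEF and was highest among transduced libraries in the 4 of SII. SII held 50.6 CPM (Clec9a line) and 88.7 CPM (hCD2 line) at day 3 and 152.1 and 91.2 CPM at day 9. The next transduced libraries were SI8 hCD2 day 9 at 20.4 CPM and SI8 Clec9a day 9 at 4.15 CPM, and the remaining 10 ran from 0 to 1.86 CPM. Splenic cDC2 held 73.2 CPM, within the range of SII, while pDC held 12.01 CPM and cDC1 5.60 CPM. Pirb made up 83.9% and 74.8% of the UMIs of the pair in SII at day 3 and 56.6% and 61.9% at day 9. In SI8 the share was 91.5% and 92.3% at day 3 and 75.3% and 64.3% at day 9, and in cDC2 74.8%. The share of the inhibitory gene was thus lower at day 9 in 4 of 4 arms of SI8 and SII, where the SI8 hCD2 day 3 value rests on 24 and 2 UMIs. It was also lower in PIP (98.3% to 88.2%) and PIB (96.9% to 91.8%, overlapping intervals). In PI4 it was higher (92.3% to 98.0%, from 39 and 50 UMIs, overlapping intervals), and PI8 day 9 held only 6 UMIs of the pair. Within SII libraries 58.1% to 71.9% of Pirb-positive cells also had a Pira2 UMI, against 13.7% to 29.1% of Pirb-negative cells. In SII Clec9a day 9 the negative cells were shallower (median 11324 against 51358 UMIs), and the part of depth in this was not tested.

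The adaptors of activating receptors were at low levels in SII and high in cDC2, where Pira2 was of like level. Fcer1g stood at 0.248 to 1.10 CPM in the 4 SII libraries, against 1223 CPM in cDC2, 1116 CPM in pDC and 2.94 to 11.7 CPM in SI8. Tyrobp stood at 0 to 1.83 CPM in SII, at 0 to 0.645 CPM in SI8 and at 1927 CPM in cDC2. Low levels were not particular to SII. In the transduced libraries outside SII, Fcer1g ran from 0.395 CPM (PIP day 3) to 84.9 CPM (PI8 day 9). Tyrobp ran from 0 CPM to 103.5 CPM (PI8 day 9) in these. The phosphatase gene Ptpn11 was at 121.3 to 143.5 CPM in SII and Ptpn6 at 6.89 to 22.9 CPM, against 360.9 CPM for Ptpn6 in cDC2. These are 3' counts per gene, which do not depend on transcript length in this assay.

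Slamf7 was at or near 0 in SII and in MEF, where both libraries held 0 UMIs. In cDC2 it held 324.6 CPM, in cDC1 283.0 CPM and in pDC 39.3 CPM. PI4 held 112.5 and 80.0 CPM, PIP 35.8 and 97.9 CPM, SI8 46.3 and 23.6 CPM in the Clec9a line and 41.5 and 96.5 CPM in the hCD2 line, day 3 before day 9. PI8 held 26.4 CPM at day 3 and 0.161 CPM in the day 9 library, and PIB 3.15 and 8.52 CPM. The SII libraries held 0, 0, 6 and 0 UMIs, the 6 UMIs (0.0827 CPM) being in hCD2 day 3. Pooled over the 4 libraries of each set, SI8 exceeded SII by a ratio of 1879 (counting interval 862.5 to 5121).

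Adding Ikzf2, the gene of the Ikaros family factor HELIOS, was the contrast from which Pira2 and Slamf7 had been named, so it is described by matched libraries. SII over SI8 in the Clec9a line was 38.5-fold (35.5 to 41.9) at day 3 and 15.7-fold (13.7 to 18.1) at day 9 for Pirb. In the hCD2 line the Pirb ratio was 25.1 (16.8 to 39.2) and 4.03 (3.46 to 4.71). For Pira2 the ratios were 79.6 (61.0 to 106) and 36.7 (29.1 to 47.0) in the Clec9a line and 102 (28.1 to 839, from 2 UMIs in SI8) and 4.46 (3.64 to 5.53) in the hCD2 line. Lilrb4a was lower in SII in 4 of 4 pairs, with ratios of 0.594 to 0.911, and the interval at hCD2 day 3 reached 1.01. Lilr4b changed sides: SII over SI8 was 2.01 and 1.95 at day 3 and 0.487 and 0.774 at day 9. The levels of Slamf7, Cd300a, Pirb and Pira2 did not overlap between the 4 SII and the 4 SI8 libraries, while those of Lilrb4a, Lilr4b and Sirpa did. For Cd300a, SI8 hCD2 day 3 rests on 1 UMI, and its interval (0.0111 to 2.43 CPM) overlapped with those of SII. The share of all genes without such overlap was not computed. Over all 15423 genes tested 37.6% were called in this contrast, and nothing is read from the members' count. In the shallow SI8 hCD2 libraries several levels differed when only cells with at least 10000 UMIs were used: Lilrb4a at day 3 was 80.0 CPM in place of 165.0, Slamf7 at day 3 7.28 CPM (2 UMIs) in place of 41.5, and Pira2 at day 9 10.9 CPM (10 UMIs) in place of 20.4.

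Other genes of these receptor families, which were listed with earlier results known, were counted in the same edgeR fit (quasi-likelihood test, Benjamini-Hochberg adjusted p under 0.05). Of 26 tested family genes 4 rose and 13 fell with Ikzf2, beside 37.6% of 15423 genes called. Their median log2 fold change was -3.15, against 0.04 over all genes. Several stood at or near 0 CPM throughout 1 set and passed the filter only through the other, so they could hardly move the other way. Nothing is read from their directions or their median. The 4 largest changes of the list were falls of Trem2, a lipid-sensing receptor of macrophages (-11.04 ± 0.42, SE), and of the SLAM family genes Slamf6 (-8.22 ± 0.76), Slamf8 (-6.71 ± 0.90) and Cd48 (-6.56 ± 1.42), with adjusted p of 2.35e-05, 0.000355, 0.00164 and 0.00958. Here and below, SE is the absolute log2 fold change over the square root of the F statistic, an approximation. Trem2 had 0 CPM in 3 SII libraries and 0.0164 CPM in the other, against 3.49 to 36.1 CPM in SI8. Neither its fitted value nor its SE is thus a bound. Cd48 was near the floor in both sets, at 0 to 1.31 CPM in SI8 and 0 to 0.0343 CPM in SII. Slamf8 held 0 CPM (hCD2 day 3) to 3.72 CPM in SI8 and 0 to 0.0336 CPM in SII. The family genes that rose were Lilra6 (5.81 ± 1.03), Cd200r4 (3.40 ± 0.49), Sirpb1a (2.81 ± 0.58) and Sirpb1c (2.02 ± 0.42), among them activating relatives of inhibitory receptors. Lilra6 was low throughout, at 0.503 to 1.96 CPM in SII and 0 to 0.215 CPM in SI8. Of 22 signalling genes 7 rose and 5 fell (median 0.59), among them Ptpn6 (2.65 ± 0.28, adjusted p = 0.000592) and Inpp5d (1.27 ± 0.28, adjusted p = 0.0101) upward and Fcer1g (-3.85 ± 0.58, adjusted p = 0.00253) downward. Of 9 ligand genes 2 rose and 3 fell (median -0.27), the rises being Fn1 and Thbs1 and the falls B2m, H2-K1 and H2-D1, which encode parts of MHC class I, the ligand of Pirb. Macrophage markers (11 genes) moved with this contrast, at 105.1 to 202.9 CPM in SII and 1305 to 9282 CPM in SI8, as did neutrophil markers (5 genes), at 1.35 to 25.5 CPM and 258.0 to 2438 CPM; their part in these results was not tested.

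Against MEF, the contrast from which Lilrb4a and Lilr4b had been named, day 9 libraries were described by level only for the members. Of the 65 tested genes of the wider list (family, signalling and ligands), 13 rose and 0 fell at day 9, beside 829 up and 917 down of 16538 genes (10.6% called). The family genes stood at 0.646 CPM or less in both MEF libraries, so most passed the filter only through transduced libraries and could hardly fall. Nothing is read from their direction or their median change. The family genes that rose were 4 of 34 (median 7.23, against 0.19 over all genes). By edgeR they were Clec12a, an inhibitory lectin (15.74 ± 1.75, adjusted p = 5.92e-05), Clec4a2 (11.52 ± 3.20, adjusted p = 0.0301), Cd72 (9.64 ± 1.27, adjusted p = 0.00021) and Siglecg (5.82 ± 1.71, adjusted p = 0.0377). Clec12a and Clec4a2 held 0 CPM in both MEF libraries, so their fitted values are no bounds. At day 9 Clec12a held 31.3 to 333.1 CPM. Among signalling genes 8 of 22 rose, and Inpp5d, which encodes SHIP-1, rose from 0 CPM in both MEF libraries to 3.93 to 40.0 CPM at day 9 (adjusted p = 0.000237). The ligand gene that rose was Cd200 (4.12), 1 of 9. Without PI8 day 9 the count was 19 of 64, and without MEF replicate 1 or without MEF replicate 2 it was 5 of 71.

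Day 9 was compared with day 3 over the 8 arms to ask whether the receptors went on changing after their appearance. With all 16 libraries 0 of 7 members were called by edgeR, beside 0.0808% of 16090 genes, while 2 had an unadjusted p under 0.05 and DESeq2 called 1 (Cd300a, adjusted p = 0.0313). For Lilrb4a and Lilr4b the PI8 arm went the other way from the other 7 arms, from 139.6 to 0.807 CPM and from 107.5 to 0.484 CPM in the library labelled PI8 day 9. Slamf7, which was lower at day 9 in 4 arms and higher in 3, went from 26.4 to 0.161 CPM there. Without that library 3 of 7 members passed the threshold, all higher at day 9, beside 7.55% of 16847 genes called. Pira2 stood at 1.94 ± 0.51 (log2, SE; adjusted p = 0.0484), against 1.78 ± 0.67 (adjusted p = 0.232) with it. The others were Lilr4b (1.25 ± 0.24, against 0.83 ± 0.80 with it) and Lilrb4a (1.00 ± 0.20, against 0.58 ± 0.77). Since Lilr4b and Lilrb4a were chosen by their rise over MEF in the same day 9 libraries, their values here are a description and no independent test.

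Arm by arm, Lilrb4a was higher at day 9 in 7 of 8 arms, from 1.12-fold in PIB to 4.71-fold in PIP, and lower in PI8. Lilr4b was also higher in 7 of 8 arms and lower in PI8, from 1.41-fold in SII Clec9a to 5.83-fold in SI8 Clec9a. Pira2 was higher in 6 of 8, although 4 of those day 3 libraries held 55 UMIs or fewer. Its ratio was 20.2 in PIP, 8.15 in PIB (3 UMIs at day 3) and 23.4 in SI8 hCD2 (2 UMIs at day 3), and 1.03 in SII hCD2. Sirpa was higher in 7 of 8 arms without being called (0.45 ± 0.42, adjusted p = 0.636), and at 0.77 ± 0.25 (adjusted p = 0.0922) without PI8 day 9. Pirb was higher in 5 and lower in 3 arms, the latter being PI8 and both SII arms. Of the other 64 listed genes tested 1 was called, Apoe, which encodes a lipoprotein that binds Trem2 (2.72 ± 0.35, adjusted p = 0.0271).

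**Figure D3:**
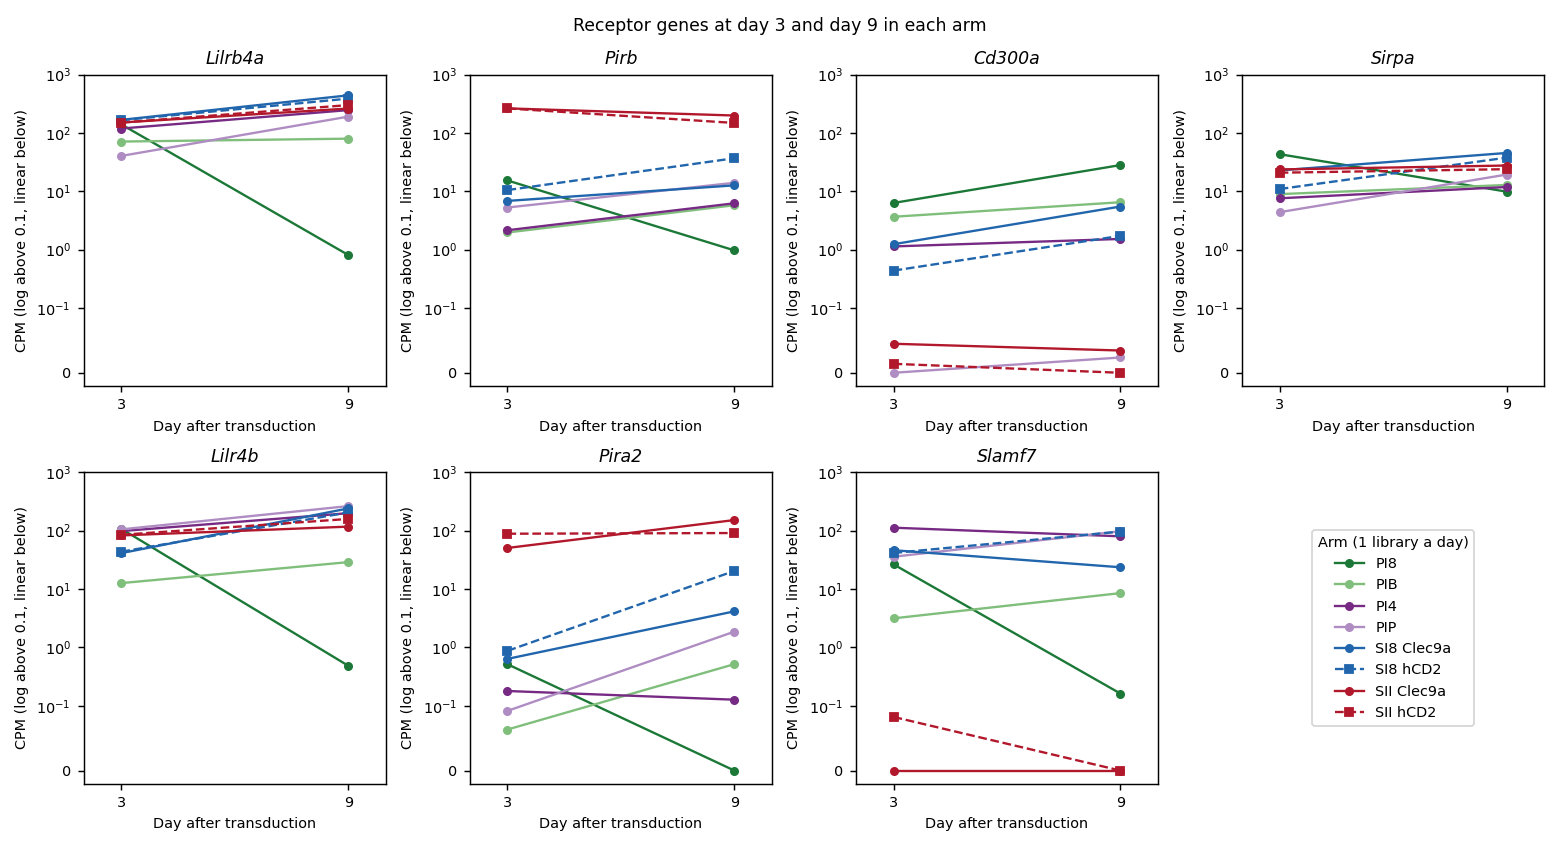
CPM of each member at day 3 and day 9 (log scale above 0.1 CPM, linear below), 1 line per arm with 1 library per point; dashed lines are the hCD2 line. The PI8 line drops steeply for Lilrb4a, Lilr4b and Slamf7 while the other 7 arms slope upward for Lilrb4a and Lilr4b, and for Pirb the SII lines slope downward and the SI8 lines upward.

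Whether the change over time differed between SII and SI8 was tested as an interaction over their 8 libraries, a test added after the data had been seen. Lilr4b was called, with a day effect lower by -1.73 ± 0.25 (log2, SE; edgeR adjusted p = 0.0356) in SII than in SI8, beside 1.05% of 15423 genes. It was higher at day 9 in 4 of 4 arms, going from 41.3 to 240.8 and from 43.6 to 205.5 CPM in SI8 and from 82.99 to 117.3 and from 85.0 to 159.0 CPM in SII. In cells with at least 10000 UMIs the value was -1.87 ± 0.37 (edgeR adjusted p = 0.122). Lilr4b had been chosen by its rise over MEF in day 9 libraries that include these, so its call is a description and no independent test. Pirb went up in both SI8 lines (from 6.83 to 12.6 and from 10.48 to 36.8 CPM) and down in both SII lines, and the test of this difference gave -2.11 ± 0.65 (adjusted p = 0.145). DESeq2 called Pirb (adjusted p = 0.0449) and Lilr4b. Of the other 57 listed genes, Syk (-2.11 ± 0.31) and Cd200r4 (-2.40 ± 0.34) were called. The summed macrophage markers named above and the share of UMIs in Gm42418, AY036118 and Lars2 also differ between these libraries (3.66% in SI8 Clec9a day 9 against 0.286% at day 3), and their part was not tested.

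Prdm1, which encodes the repressor BLIMP1, was added to Pu.1 and Irf4 in PIP. Cd300a was the member called, lower in PIP at both days: PI4 held 19 and 12 UMIs (1.13 and 1.52 CPM) and PIP 0 UMIs (limit 0.0395 CPM) and 2 UMIs (0.0236 CPM). The pooled ratio of PI4 to PIP was 101.2 (counting interval 25.8 to 872.5), and the log2 fold change was -6.58 ± 0.95 (edgeR adjusted p = 0.0467), beside 0.137% of 16090 genes. The call was lost in cells with at least 10000 UMIs, where the fold change was as large (-6.62 ± 0.95, adjusted p = 0.0525), and when libraries were thinned to the shallowest (-5.28 ± 1.95, adjusted p = 0.445), and without PI8 day 9 the adjusted p was 0.0067. The level is low throughout, and 67.8% and 60.3% of PI4 cells had fewer than 10000 UMIs against 1.36% and 1.77% in PIP. The other 6 members were not called. Lilrb4a was lower in PIP at both days (40.3 against 118.8 CPM and 190.0 against 245.7 CPM) and Lilr4b higher (105.4 against 98.4 CPM and 263.8 against 199.7 CPM). Of the 64 other listed genes tested edgeR called 0 and DESeq2 8.

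The remaining contrasts called 0 of 7 members. For Batf3 added to Pu.1 and Irf8 (PIB minus PI8), 0% of 16090 genes were called by edgeR, 2987 had an unadjusted p under 0.05 (0 of them members) and DESeq2 called 1281, of which 0 were members. At day 3, where both libraries carried fibroblast markers, all 7 members were lower in PIB than in PI8, among them Lilr4b (12.6 against 107.5 CPM), Slamf7 (3.15 against 26.4 CPM), Pirb (1.96 against 15.3 CPM) and Sirpa (8.93 against 43.1 CPM). At day 9 the labelled PI8 library made 6 of 7 lie higher in PIB, all except Cd300a. Without that library 0 members were called, while 5 of 7 had an unadjusted p under 0.05, all lower in PIB, beside 1599 of 16847 genes. The lowest edgeR adjusted p was that of Lilr4b, at 0.0518 (-3.19 ± 0.52, against -1.98 ± 1.54 with the library). Sirpa went from -1.49 to -2.46, Pirb from -1.40 to -2.52, Slamf7 from -1.09 to -2.51 and Lilrb4a from -0.23 to -1.39. For Pu.1 against Spib with Irf8, 0% of 16090 genes were called, 2576 had an unadjusted p under 0.05 and DESeq2 called 883. Cd300a was the member nearest to a call (2.10 ± 0.66, edgeR adjusted p = 0.266), and it was the 1 member that DESeq2 called (adjusted p = 0.0112). Without PI8 day 9 it stood at 1.63 ± 0.69 (adjusted p = 0.713).

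For Irf4 against Irf8 with Pu.1 (PI4 and PIP against PI8 and PIB), 0.00697% of 14339 genes were called, and 0 members. The unadjusted p was under 0.05 for 2 members, Slamf7 (3.41 ± 1.18, adjusted p = 0.648) and Cd300a (-3.83 ± 1.60, adjusted p = 0.666), and DESeq2 called 0. Slamf7 lay at 35.8 to 112.5 CPM in the Irf4 sets and at 0.161 to 26.4 CPM in the Irf8 sets, so the groups did not overlap. Cd300a lay at 0 to 1.52 CPM and at 3.65 to 28.1 CPM, again without overlap. The share of all genes without such overlap was not computed, so nothing is read from this, and 1061 of the 14339 genes had an unadjusted p under 0.05. Without PI8 day 9, Slamf7 stood at 2.82 ± 0.84 (adjusted p = 0.258) and Cd300a at -3.33 ± 1.57 (adjusted p = 0.381). For the hCD2 line against the Clec9a line, 0.0195% of 15423 genes were called, 0 of 7 members by edgeR or DESeq2, and 1 member (Cd300a, -1.58 ± 0.67, adjusted p = 0.918) had an unadjusted p under 0.05. Ddx3y stood at 0 CPM in the hCD2 libraries and at 18.6 to 47.8 CPM in the matched Clec9a libraries, so the line and this difference cannot be told apart. A p above the threshold does not show that levels are alike.

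**Figure D4:**
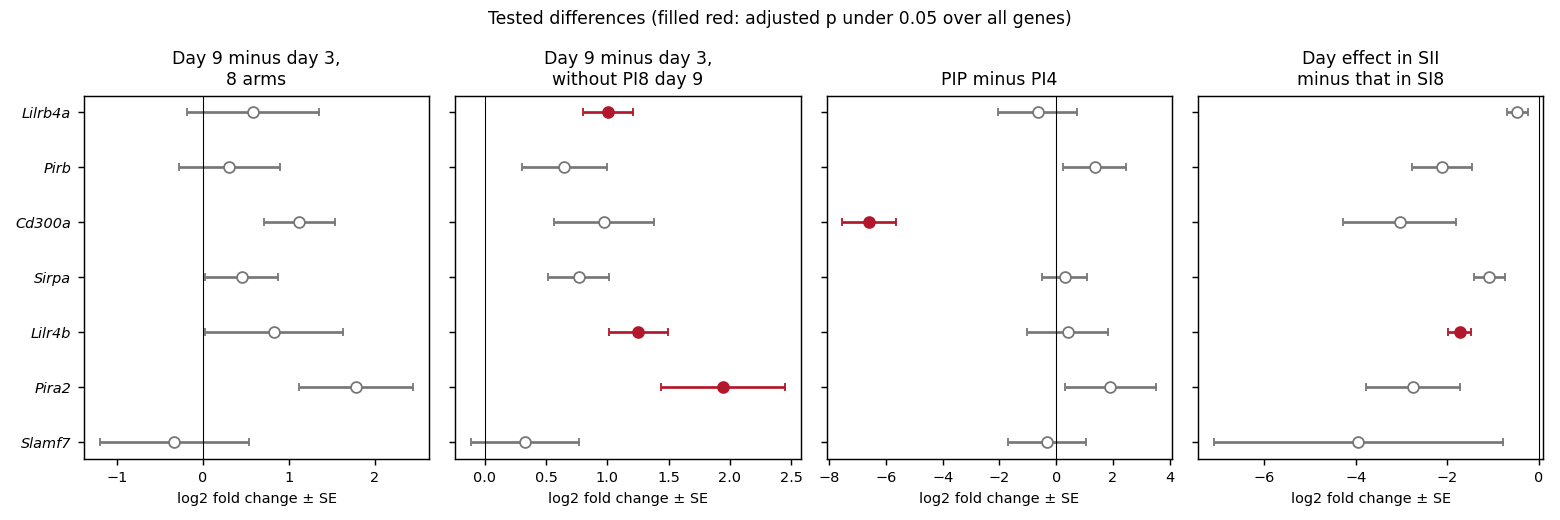
log2 fold change ± SE (derived from the F statistic) of the 7 members in 4 tested comparisons. Filled red points passed an adjusted p of 0.05 over all genes tested. Lilrb4a, Lilr4b and Pira2 pass for day 9 against day 3 only when PI8 day 9 is left out. This is a description for the first pair, which was chosen by day 9 values. Cd300a passes for PIP against PI4. Lilr4b passes for the difference of day effects, a test added after the data had been seen.

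Within libraries the members differed between cells. In cDC2, the 481 cells with a Clec12a UMI held 54.2 CPM of Lilrb4a and 55.2 CPM of Pira2, and the 1400 cells without held 19.98 and 80.8 CPM. Pira2 was the only member lower in the cells with Clec12a. Pirb (242.3 against 207.1 CPM), Cd300a (406.7 against 325.2 CPM) and Slamf7 (380.0 against 300.9 CPM) were higher there. Lilr4b and Sirpa were also higher, with intervals that overlapped. The cells with Clec12a were deeper, at a median of 13910 against 11453 UMIs. In SII at day 9, cells with a UMI of the pan-leukocyte gene Ptprc held more Pira2 than cells without, at 223.1 against 115.7 CPM in the Clec9a line and 156.1 against 64.4 CPM in the hCD2 line, and more Lilrb4a, at 335.6 against 223.4 and 396.5 against 259.6 CPM. The cells with Ptprc also held more Pirb (264.9 against 164.2 and 235.6 against 111.9 CPM) and Lilr4b (147.3 against 101.9 and 204 against 140.5 CPM). Sirpa was higher in them too, with overlapping intervals in the Clec9a line. Cd300a and Slamf7 held 1 UMI or 0. Cells of a library share their source, so these are descriptions. At least 4 of the 7 members were detected in 79.9% of cDC2 cells, in 55.4% to 65.5% of SII cells and in 0% of MEF cells. Median depths were 11957 UMIs in cDC2, 39646 to 54414 in SII and 18100 and 25928 in MEF. PIP day 9 lay in the range of SII, at 56.3% and a median of 75762 UMIs. The remaining transduced libraries ran from 0% in PI8 day 9 to 49.4% in PI8 day 3.

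The genes whose levels over the 21 libraries were most like each member were found by Pearson's r of log2(CPM + 1) among 9296 genes with at least 20 CPM in a library. For Lilrb4a these were Pla2g7 (0.957), Lilr4b (0.947) and Atp6v1f (0.935), and for Lilr4b Atp6v1b2 (0.951), Lilrb4a (0.947) and Pla2g7 (0.923). Pira2 was closest to Ankrd13c (0.930), Pirb (0.922) and Rb1 (0.920), and Pirb to Cyld (0.935), Pira2 (0.922) and Ankrd13c (0.919). For Cd300a they were Tnfaip8 (0.947), Fyb (0.946) and Casp1 (0.945), and for Slamf7 Prr5l (0.900), Nostrin (0.889) and Amz1 (0.889). Sirpa had the loosest matches, Tfrc (0.810), Cybb (0.794) and Zeb2os (0.785). The libraries share factor sets, lines and depth, so these values describe the pattern and carry no test.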

How the data were processed

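UMI counts per gene and cell, whole numbers in 1 table of 24455 genes and 25991 cells, were deposited by the authors, who used Cell Ranger 6.0.1, Seurat and the build mm10, per the submitters' processing notes. No source used here states the filters on cells; deposited cells held 2501 to 99996 UMIs. From there, counts were summed per library (2291128 to 89394715 UMIs) and given as CPM of the library total with exact Poisson intervals; shares have exact Clopper-Pearson intervals. No doublets were removed; Scrublet in scanpy 1.11.5 called 170 cells (0.654%), left out as an alternative.

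Tests used edgeR 4.0.16 (R 4.3.3, quasi-likelihood, TMM, filterByExpr, two-sided), checked on simulated counts, with Benjamini-Hochberg adjustment over all genes tested. For the difference of day effects that check recovered few of the changed genes, so a gene not called there says little. DESeq2 1.42.0 was an alternative. All 7 members passed the filter on low counts in each of these fits (6 in 4 of the comparisons thinned to the shallowest library), some only through libraries where they are high. Day and the contrasts PIP minus PI4, PIB minus PI8 and PI8 minus SI8 came from 1 fit of 16 libraries with arm as block; SI8 and SII from 8 libraries; Irf4 against Irf8 from 8; MEF contrasts from 18. No source says that libraries came from separate cultures or animals, so p-values reflect library-to-library spread only, possibly technical. The 2 MEF libraries differed beyond sampling noise (chi-square per degree of freedom 2.35 over 15245 genes) and were kept as separate.

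Members, gene lists and comparisons were chosen with earlier results of these data known. Genes named from the lists are the 4 called with the largest fold change per comparison, the rest where a count of 5 or fewer is spelled out, and the phosphatases and ligands; likeness names the top 3. Genes outside that rule (the adaptors, H2-K1 and H2-D1) were chosen after their values were seen. Gene positions come from GENCODE M21 and upstream sequences from RefSeq, both GRCm38, the build that mm10 denotes; the count table gives symbols only. A gene of the signalling list is not reported here by name.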

Additional observations from a re-analysis of the deposited data

Results flagged for a closer look

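The change from day 3 to day 9 differed between SII and SI8 for Lilr4b, by -1.73 on the log2 scale (edgeR adjusted p = 0.0356). The interaction test was added after the data had been seen, and Lilr4b had been chosen by day 9 values. Its level was higher at day 9 in both lines of both sets. For Pirb the levels went up in both SI8 lines and down in both SII lines, a difference of -2.11 (adjusted p = 0.145) that edgeR did not call. Cd300a also went opposite ways in both lines, with a difference of -3.04 (adjusted p = 0.235), but SII held only 4, 1, 1 and 0 UMIs.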

How the results depend on the processing

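The number of members called for day 9 against day 3 was 0; it was 1 with DESeq2, 3 without the PI8 day 9 library and 0 to 3 when each arm was left out in turn, with 3 without the PI8 arm. For Prdm1 it was 1, and 0 in cells with at least 10000 UMIs and after thinning to the shallowest library. For Pu.1 against Spib it was 0, and 1 with DESeq2. For the difference of day effects it was 1, and 2 with DESeq2 and 0 in cells with at least 10000 UMIs. Listed genes called for day 9 against MEF were 13, and 36 with DESeq2, 5 without MEF replicate 1 and 5 without MEF replicate 2. The cause of these changes was not tested. No called member changed direction. Among uncalled members, leaving out PI8 day 9 turned Slamf7 for day (-0.33 to 0.33), Lilr4b (-0.73 to 0.57), Pirb (-0.11 to 0.98) and Sirpa (-0.24 to 0.75) for Pu.1 against Spib, and Pirb (0.32 to -0.33) and Pira2 (0.54 to -0.05) for Irf4. Without arms as blocks Pirb (0.31 to -0.50) and Slamf7 (0.20) turned for day. Thinning turned Slamf7 for day (0.03) and Lilrb4a for Batf3 (-0.23 to 0.07), and cells with at least 10000 UMIs turned Lilrb4a for the line (0.03 to -0.05). Counts over all genes moved more. DESeq2 called 1203 against 13 for day 9 against day 3, 628 against 22 for Prdm1 (27.4% up against 9.09%), 335 against 1 for Irf4, 66 against 3 for the line, 1410 against 162 for the difference of day effects and 3579 against 1746 for MEF (59.7% up against 47.5%). Cells with at least 10000 UMIs gave 3, 12, 3838 (against 5798 for Ikzf2) and 15 for day, Prdm1, Ikzf2 and the difference of day effects, and thinning gave 2, 5, 3753 and 152. Thinning gave 1083 for MEF. Without a filter on low counts the difference of day effects gave 488 and the line 10. Without PI8 day 9 the counts were 1272 for day, 660 for Prdm1, 40 for Batf3, 11 for Pu.1 against Spib and 3310 for MEF, and they were 264 and 267 for MEF when replicate 1 or 2 was left out. Day was compared within arms; without arms as blocks it gave 0 genes and 0 members. Of 147 levels, 18 moved beyond their counting interval in cells with at least 10000 UMIs and 0 without doublets; Sirpa in SI8 hCD2 went from 10.91 CPM (25 UMIs) to 0 at day 3 and from 37.6 to 19.6 CPM at day 9. Depth limits genes with few UMIs, the lowest library total being 2291128.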
